A study of Mus musculus with 8 samples.

Results

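The 35 genes described here encode proteins that fold, glycosylate and survey secretory proteins in the endoplasmic reticulum (ER), together with the sensors and transcription factors of the ER stress response. They were taken by gene symbol from a list of 16 chaperones and folding enzymes, 7 subunits of oligosaccharyltransferase, 2 translocon components, 3 genes of ER-associated degradation and 7 stress sensors and transcription factors. All 35 were found among the 55276 gene symbols used, and all 35 passed the filter on low values in every comparison. The data are bulk RNA sequencing of fibro-adipogenic progenitors (FAPs), the interstitial mesenchymal cells of skeletal muscle, sorted as GFP-positive cells from injured tibialis anterior muscle of mice aged 4 to 6 months. Controls (Ctrl) were Osr1 flox/+ CAGG Cre+ and conditional knockouts (Osr1cKO) were Osr1 flox/flox CAGG Cre+, sampled at 3 and 7 days post injury (dpi), with 2 libraries in each of 4 groups. Every mouse received a freeze-pierce injury and tamoxifen, so the controls also carry the inducible Cre and a recombined Osr1 allele. The CAGG promoter is active in most tissues, the recombined allele expresses GFP in place of the transcription factor Osr1, and the controls are therefore heterozygous rather than wild type. Each 3 dpi library represents 1 animal and each 7 dpi library a pool of 4, and the study's methods name a second instrument and read length that the sample labels do not, so day, pooling and possibly sequencing run cannot be told apart.

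Nearly all secreted proteins, including the collagens that FAPs make in quantity, enter the ER through the Sec61 translocon, receive N-glycans from oligosaccharyltransferase and are folded by chaperones such as BiP (Hspa5) and by protein disulfide isomerases. When folding demand exceeds capacity, the sensors IRE1 (Ern1), PERK (Eif2ak3) and ATF6 start the unfolded protein response, which acts through the transcription factors XBP1, ATF4 and ATF6 and induces chaperones and degradation factors. ATF4 also serves the integrated stress response, which amino acid shortage can start without the ER, and its downstream genes include Ddit3 (CHOP) and Trib3. A mature XBP1 mRNA is produced by cleavage and ligation of the transcript, and PERK and ATF6 are switched on at the protein, so values per gene do not measure the activity of these sensors.

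The ER stress response element (ERSE) is the sequence through which ATF6 and XBP1 act, and it links the promoters of several of these genes. The search covered the 300 bases that RefSeq (GRCm38.p6) places from 250 before to 50 after each gene's start, on both strands, and 32 of the 35 members had such a window. The ERSE, searched as CCAAT and CCACG with 9 bases between them, was found in the windows of 7 of 32 members (21.9%), against 37 of 27025 genes (0.137%). The 7 were Hspa5, Hsp90b1, Calr, Canx, Pdia6, Dnajc3 and Creld2, all of them chaperones or folding enzymes. They are included in the 37. The members were chosen as genes of the ER and its stress response, so the contrast with all genes is a description and not a test. The 8 matches, a pair of them in Hsp90b1, lay between positions -212 and -47 from the start, 5 in the direction of the gene and 3 in the opposite direction. The related ERSE-II, searched as ATTGG and CCACG with 1 base between them, was present in 2 of 32 members (6.25%), Dnajb11 and Herpud1, against 0.0444% of genes. It shares the letters CCACG and the CCAAT box with ERSE but not their spacing. The ATF4-type element TGATGCAA occurred in 1 member, Herpud1 (3.12% against 1.03% of genes), and TGACGTGG, one form of the XBP1 element, in none against 0.714% of genes. The stretches with matches that end upstream of the gene start are shown, because their genes differ in how they changed between the days. The ERSE-II of Dnajb11 lay past the start, at positions 7 to 17, and is not shown. Capitals mark the ERSE in the first 7 lines, and the TGATGCAA element (on the opposite strand) followed by ERSE-II in the line for Herpud1, each read 5′ to 3′ on the strand of the gene.
Hspa5: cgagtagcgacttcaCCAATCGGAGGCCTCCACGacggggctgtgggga
Hsp90b1: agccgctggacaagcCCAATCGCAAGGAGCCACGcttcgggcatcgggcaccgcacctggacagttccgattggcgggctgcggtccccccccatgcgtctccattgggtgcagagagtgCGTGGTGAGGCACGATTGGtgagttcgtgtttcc
Calr: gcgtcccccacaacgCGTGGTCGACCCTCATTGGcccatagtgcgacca
Canx: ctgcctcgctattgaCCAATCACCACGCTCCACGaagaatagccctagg
Pdia6: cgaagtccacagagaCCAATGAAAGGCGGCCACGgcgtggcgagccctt
Dnajc3: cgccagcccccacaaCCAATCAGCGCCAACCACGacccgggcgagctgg
Creld2: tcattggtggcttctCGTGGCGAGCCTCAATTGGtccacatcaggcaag
Herpud1: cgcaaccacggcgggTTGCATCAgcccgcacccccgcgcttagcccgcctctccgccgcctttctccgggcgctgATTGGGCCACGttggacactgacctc

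In GRCm38 these stretches are chr2:34772010-34772058 on the plus strand for Hspa5, chr10:86705518-86705671 on the minus strand for Hsp90b1 and chr8:84847060-84847108 on the minus strand for Calr. Those of the other folding enzymes are chr11:50325785-50325833 (minus) for Canx, chr12:17266476-17266524 (plus) for Pdia6, chr14:118937812-118937860 (plus) for Dnajc3 and chr15:88819505-88819553 (plus) for Creld2. The Herpud1 stretch is chr8:94386302-94386402 on the plus strand. All end upstream of the RefSeq start of their gene. A match of letters is a description of the window and was not tested as a binding site.

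The libraries held between 36517360 and 51096932 fragments, recovered from the deposited TPM, a measure of transcript abundance relative to transcript length and to the library's total. FAP markers were abundant in every library, with Col1a1 between 12400 and 28080 TPM, while plasma cell markers, which would bring a highly active secretory apparatus, summed to at most 0.2896 TPM with Igkc at 0 in all 8. Osr1 was at 105.0 and 90.97 TPM in Ctrl and 70.69 and 71.89 TPM in Osr1cKO at 3 dpi, and at 67.58 and 71.62 against 64.42 and 60.8 TPM at 7 dpi. Gene-level TPM cannot separate the remaining exons of the recombined allele from intact transcript, and Osr1cKO lay below Ctrl without overlap at both days. The log2 fold change was -0.45 at 3 dpi (unadjusted p = 0.0164, adjusted p = 0.771, limma over all genes), which passes the unadjusted rule used for that day, and -0.28 at 7 dpi (unadjusted p = 0.0167, adjusted p = 0.317, limma over all genes), which does not pass the adjusted rule used for that one.

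The 35 genes together held 2.05% to 2.83% of all TPM at 3 dpi and 1.33% to 1.68% at 7 dpi. TPM is per transcript length, so levels can be set side by side between genes. The collagen chaperone Serpinh1 (HSP47) was the most abundant, with a mean of 4573 TPM over the 8 libraries, followed by P4hb, the beta subunit of collagen prolyl 4-hydroxylase and itself a disulfide isomerase, at 2699 TPM. Calr at 2127 TPM and Hspa5 at 1854 TPM came next, and Pdia3 (1344 TPM) and Hsp90b1 (1334 TPM) did not differ beyond their spread over libraries. The stress regulators were among the lowest, apart from Atf4 at 703 TPM and Xbp1 at 192 TPM. Ddit3 had a mean of 55.1 TPM, Eif2ak3 40.2, Atf6 34.5, Ern1 26.8 and Trib3 7.18 TPM.

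From 3 to 7 dpi most of the folding and glycosylation genes fell in both genotypes, and the summed TPM of the members was 40.0% lower in Ctrl and 38.8% lower in Osr1cKO. In Ctrl, 23 of 35 members fell and 2 rose (limma over all genes, adjusted p under 0.05 and fold change over 1.2), with 24.2% of all 17226 tested genes lower and 21.5% higher by the same rule. In Osr1cKO, 25 of 35 fell and 2 rose, against 22.1% lower and 18.5% higher among all genes. The median log2 fold change of the members was -0.75 in Ctrl and -0.83 in Osr1cKO, beside 0.02 for all genes in either genotype. These 2 comparisons share no library, and 23 of 35 members (65.7%) were lower in both, as were 18.9% of all genes tested. Libraries of the days did not overlap for 25 members lower in Ctrl and 28 lower in Osr1cKO, where 36.8% and 37.6% of all genes were lower without overlap. In bulk RNA, less transcript per cell and fewer cells of a high-expressing type cannot be told apart.

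**Figure D1:**
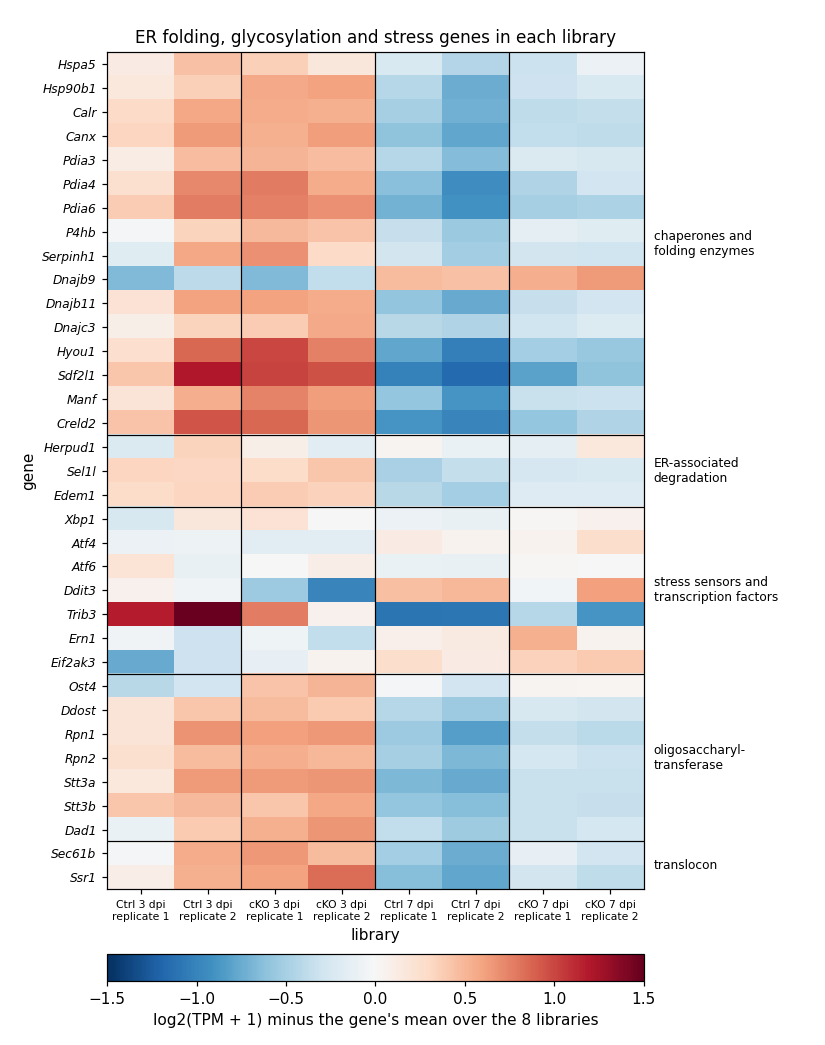
Each row is one of the 35 genes, grouped by role, and each column one of the 8 libraries. The colour is log2(TPM + 1) minus the gene's mean over the 8 libraries: most chaperone, oligosaccharyltransferase and translocon genes are red at 3 dpi and blue at 7 dpi, Dnajb9 shows the opposite, and the first Ctrl library at 3 dpi is paler than the other 3 of that day.

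Among the 16 chaperones and folding enzymes, 12 fell in Ctrl and 13 in Osr1cKO, with median log2 fold changes of -0.98 and -0.96. Sdf2l1, which keeps BiP and its co-chaperone together with unfolded clients, had 86.2 and 148.9 TPM in the Ctrl libraries at 3 dpi and 130.7 and 125.4 TPM in Osr1cKO. At 7 dpi it had 31.5 and 28.2 TPM in Ctrl and 36.4 and 41.9 TPM in Osr1cKO. All 4 libraries of 7 dpi lay far below the lowest library of 3 dpi, and the log2 fold change was -1.81 ± 0.25 (SE) in Ctrl and -1.75 ± 0.25 in Osr1cKO (limma adjusted p = 0.00141 and 0.00215). No chaperone fell by more.

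Creld2, an ER stress-inducible secreted factor with disulfide isomerase activity, fell from 225.6 and 322.6 TPM to 90.1 and 83.5 TPM in Ctrl. In Osr1cKO it fell from 304.8 and 264.7 TPM to 111.0 and 121.4 TPM. The log2 fold change was -1.55 in Ctrl and -1.34 in Osr1cKO (limma adjusted p = 0.000948 and 0.00212), and the days were again fully separate. Hyou1, a large HSP70-like nucleotide exchange factor for BiP, went from 143.7 and 219.4 TPM to 69.7 and 58.5 TPM in Ctrl, a log2 fold change of -1.38. In Osr1cKO the same gene went from 241.4 and 203.7 TPM to 83.8 and 80.8 TPM (-1.48, limma adjusted p = 0.00275 and 0.00268).

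Of the disulfide isomerases, Pdia6 fell by 1.31 on the log2 scale in Ctrl and 1.27 in Osr1cKO, Pdia4 fell by 1.19 and 1.10, and Pdia3, which works with the lectin chaperones, fell by 0.75 and 0.77. The lectin chaperones themselves, Canx and Calr, had log2 fold changes of -1.09 and -0.96 in Ctrl and -1.02 and -0.97 in Osr1cKO. Manf and Dnajb11, a secreted ER stress-inducible factor and a BiP co-chaperone, had log2 fold changes of -1.03 and -1.004 in Ctrl. The HSP90 of the ER, Hsp90b1, and the co-chaperone and PERK inhibitor Dnajc3 changed less, by -0.76 and -0.57 in Ctrl and by -0.91 and -0.79 in Osr1cKO. All of these passed the test in both genotypes.

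Hspa5, the central chaperone of the ER, did not pass the test in either genotype. Its libraries had 1979 and 2465 TPM in Ctrl and 2330 and 2034 TPM in Osr1cKO at 3 dpi, and 1542 and 1334 against 1447 and 1703 TPM at 7 dpi. Every library of 7 dpi was below every library of 3 dpi, but the log2 fold changes of -0.54 and -0.53 had adjusted p = 0.0709 and 0.081 (limma), and both calls were gained under limma-voom, with robust eBayes or without the first Ctrl library of 3 dpi. That of Ctrl was also gained with the deposited TPM unscaled and that of Osr1cKO without the second Ctrl library of 3 dpi. The collagen-directed members were similar. P4hb had -0.53 in Ctrl (adjusted p = 0.0893, limma) and passed narrowly in Osr1cKO at -0.68 (adjusted p = 0.0471, limma). Serpinh1 passed in neither, at -0.51 and -0.83 (adjusted p = 0.256 and 0.0915, limma). The Ctrl libraries of 3 dpi lay far apart for Serpinh1, at 3858 and 6525 TPM.

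One chaperone gene moved the other way. Dnajb9 (ERdj4), a BiP co-chaperone that restrains IRE1, had 95.2 and 114.7 TPM in Ctrl and 95.3 and 116.9 TPM in Osr1cKO at 3 dpi, and then 210.4 and 204.9 TPM in Ctrl and 221.4 and 236.7 TPM in Osr1cKO at 7 dpi. It rose by 1.06 ± 0.14 on the log2 scale in Ctrl and 1.048 ± 0.14 in Osr1cKO (limma adjusted p = 0.00128 and 0.00184), while the libraries of the genotypes overlapped at 3 dpi. Of the 7 members with an ERSE match printed above, 6 fell in both genotypes, Hspa5 being the exception. Of all 35 members 23 (65.7%) fell in both, as did 18.9% of all genes tested, so most members fell with or without a match. Among the 30 other genes with an ERSE match, 11 were tested between the days. In Ctrl 4 fell and 1 rose, where 24.2% of all genes fell and 21.5% rose, and in Osr1cKO 4 fell and 3 rose, where 22.1% and 18.5% of all genes did. Their median log2 fold change was -0.25 in Ctrl and 0.10 in Osr1cKO. Alg12, a mannosyltransferase of glycan assembly, the ubiquitin ligase Syvn1 and Hnrnpa3 fell in both, Derl3 fell in Ctrl and Adcy3 in Osr1cKO. Zfp57 rose in both, and Spats2l and Xlr3b rose in Osr1cKO. All of these were named after their values were seen. Derl3 was near the floor, at 0.157 to 1.531 TPM and 3 to 38 fragments per library.

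The subunits of oligosaccharyltransferase among the members fell as well, with Ost4 as the exception in Ctrl. Of these 7 subunits 6 fell in Ctrl and 7 in Osr1cKO, with median log2 fold changes of -0.86 and -0.90. Stt3b, one of the alternative catalytic subunits, went from 294.8 and 309.2 TPM to 146.3 and 141.1 TPM in Ctrl, and from 293.0 and 329.3 TPM to 174.1 and 172.2 TPM in Osr1cKO. The replicates were close and the days far apart, with log2 fold changes of -0.99 ± 0.10 and -0.90 ± 0.10 (limma adjusted p = 0.000612 and 0.00118). The other catalytic subunit, Stt3a, which sits at the translocon, fell by 1.03 and 1.051. The ribophorins Rpn1 and Rpn2 fell by 1.04 and 0.86 in Ctrl and by 1.08 and 0.87 in Osr1cKO, Ddost by 0.71 and 0.75, and Dad1 by 0.52 (limma adjusted p = 0.0473) and 0.96.

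The translocon components fell with them. Sec61b, the beta subunit of the Sec61 channel, had 232.3 and 344.5 TPM in Ctrl and 369.8 and 326.1 TPM in Osr1cKO at 3 dpi, and 164.5 and 139.9 against 215.1 and 192.0 TPM at 7 dpi. The log2 fold changes were -0.81 and -0.83 (limma adjusted p = 0.0198 and 0.0209), and both calls depended on single libraries. That of Ctrl was lost without Ctrl replicate 2 of 3 dpi (-0.50) or of 7 dpi (-0.67) and with the Ctrl libraries fitted alone (-0.80), and that of Osr1cKO without any 1 of its 4 libraries (-0.94 to -0.71). Both were lost with no filter on low values. Ssr1, a subunit of the translocon-associated protein complex, fell by 0.94 in Ctrl and 1.11 in Osr1cKO (limma adjusted p = 0.00502 and 0.00331). In ER-associated degradation, Sel1l, the adaptor of the HRD1 ubiquitin ligase, had log2 fold changes of -0.66 ± 0.09 and -0.65 ± 0.09. The lectin Edem1 had -0.68 ± 0.09 and -0.62 ± 0.09, and both genes passed the test in both genotypes. Herpud1, a stress-inducible organiser of that ligase with both an ERSE-II and an ATF4-type match, gave -0.01 and -0.02. It had 172.4 to 252.6 TPM at 3 dpi and 181.3 to 224.5 TPM at 7 dpi. Dnajb11, the other member with an ERSE-II, fell in both genotypes, with log2 fold changes of -1.004 and -0.95.

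**Figure D2:**
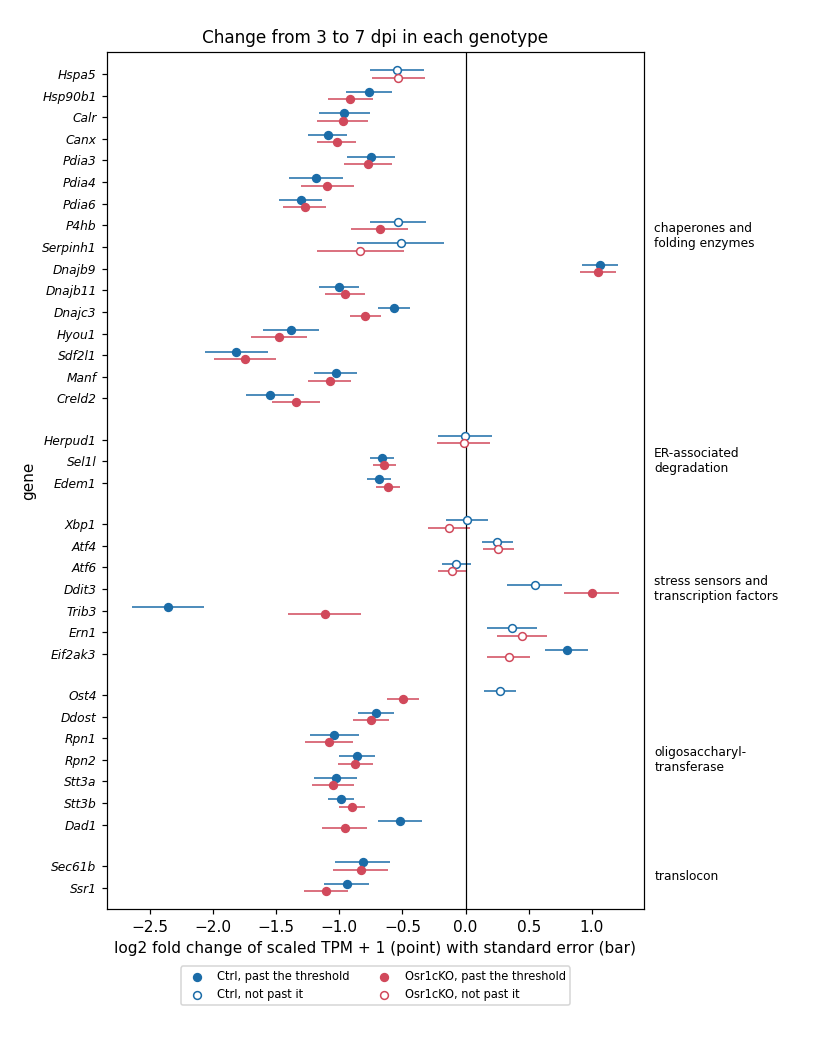
Points give the log2 fold change from 3 to 7 dpi of each member on the log2(scaled TPM + 1) scale, bars its standard error, and filled points passed the test (limma, adjusted p under 0.05 and fold over 1.2). The blue Ctrl and red Osr1cKO points lie close together for most genes, with 23 members filled on the left in both, and differ in position most for Trib3 and Ost4.

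Of the 7 stress sensors and transcription factors, 1 fell and 1 rose in each genotype. Each is a share of 14.3%, below that of all genes that fell (24.2% in Ctrl and 22.1% in Osr1cKO) or rose (21.5% and 18.5%). The median log2 fold change was 0.25 in Ctrl and 0.26 in Osr1cKO, and its difference from that of the chaperones was not tested. Xbp1 had 161.0 and 215.0 TPM in Ctrl and 221.5 and 190.6 TPM in Osr1cKO at 3 dpi, and 178.9 and 176.0 against 192.9 and 199.0 TPM at 7 dpi, with overlapping days. Its log2 fold changes were 0.01 and -0.13. Atf4 was at 625.4 to 663.4 TPM at 3 dpi and 724.3 to 841.3 TPM at 7 dpi, without overlap between the days, yet at 0.25 and 0.26 it did not pass (limma adjusted p = 0.136 and 0.133). Atf6 gave -0.07 and -0.11 and Ern1 0.37 and 0.45, none past the threshold.

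Eif2ak3, which encodes PERK, rose in Ctrl from 22.8 and 31.3 TPM to 47.1 and 42.6 TPM, a log2 fold change of 0.80 ± 0.17 (limma adjusted p = 0.0082). The call was lost without replicate 1 of Ctrl at 7 dpi, at 0.72. In Osr1cKO it went from 35.8 and 40.7 TPM to 49.8 and 51.8 TPM, 0.34 ± 0.17 (adjusted p = 0.146, limma), a call gained without either Ctrl library of 3 dpi or with the Osr1cKO libraries fitted alone. Ddit3, the pro-apoptotic transcription factor CHOP, had 54.2 and 50.02 TPM in Ctrl at 3 dpi and 71.1 and 73.8 TPM at 7 dpi, 0.55 ± 0.22 (adjusted p = 0.0761, limma), a call gained without either Osr1cKO library of 7 dpi or with the Ctrl libraries fitted alone. In Osr1cKO it rose from 35.3 and 25.6 TPM to 50.5 and 80.4 TPM, 0.998 ± 0.22 (adjusted p = 0.0107, limma), and this call was lost without replicate 2 of either day (0.75 and 0.71).

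Trib3, a pseudokinase and CHOP target that dampens ATF4 signalling, had the largest fold change of any member in Ctrl. It fell there from 13.7 and 17.2 TPM to 2.05 and 2.09 TPM, a log2 fold change of -2.36 ± 0.29 (limma adjusted p = 0.000943). In Osr1cKO it fell from 10.1 and 5.86 TPM to 3.87 and 2.55 TPM, -1.12 ± 0.29 (limma adjusted p = 0.020), a call lost without replicate 1 of 3 dpi (-0.76) or replicate 2 of 7 dpi (-0.86) and with no filter on low values. In Osr1cKO, Ddit3 rose while Trib3, known as a gene downstream of it, fell. Other states of the cells moved with the day as well: the summed TPM of 6 proliferation genes was 548.0 to 735.2 at 3 dpi and 140.8 to 204.0 at 7 dpi, and that of 9 dissociation and immediate early genes 7453 to 10010 and 12630 to 15560. Marker sums of some other cell types were also higher at 7 dpi, without overlap between the days. The 4 myofiber markers summed to 4.74 to 5.81 TPM at 3 dpi and 22.8 to 50.6 TPM at 7 dpi. The 4 muscle stem cell markers summed to 4.42 to 7.34 and 11.0 to 22.5 TPM, and 3 erythroid markers to 0 to 1.35 and 10.2 to 45.4 TPM. Sums of endothelial markers (2.32 to 18.9 and 7.12 to 12.7 TPM) and leukocyte markers (13.2 to 27.7 and 26.5 to 29.1 TPM) overlapped between the days. Those of Schwann cell markers (0.3943 to 0.9615 and 0.6937 to 2.965 TPM) and plasma cell markers (0.06068 to 0.2896 and 0.1654 to 0.2291 TPM) did too. The 3 mural cell markers summed to 20.3 to 38.5 and 31.2 to 83.5 TPM, with overlap, and did not move together. Rgs5 was at 0.504 to 1.007 and 12.3 to 63.6 TPM and Myh11 at 0.083 to 0.221 and 0.775 to 3.47 TPM. Cspg4 went the other way, at 19.4 to 37.6 and 13.3 to 18.2 TPM. The part of these states and cell types in the fall of the ER genes was not tested.

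**Figure D3:**
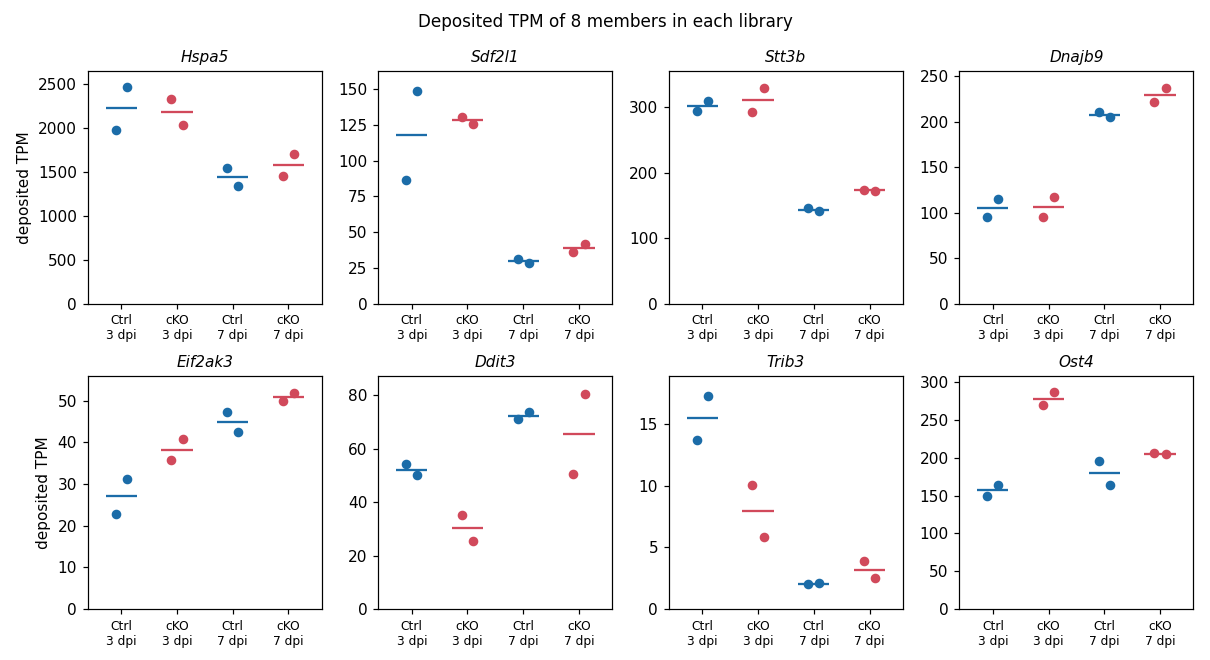
Deposited TPM (vertical axis, from 0) of 8 members in each library, with Ctrl in blue and Osr1cKO in red, 1 point per library and a line at the group mean. The Sdf2l1 and Stt3b points of 7 dpi all lie below those of 3 dpi and the Dnajb9 points above them, Ddit3 and Trib3 are lower in both Osr1cKO libraries than in both Ctrl libraries at 3 dpi, and Ost4 is higher.

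At 3 dpi, the question was whether loss of Osr1 altered these genes in early FAPs. A single member, Ost4, was higher in Osr1cKO and 2, Ddit3 and Trib3, were lower at fold change over 1.2 and unadjusted p under 0.05, the rule of the study for this day. By this rule 2.36% of all 15588 tested genes were higher and 3.93% lower, 6.29% in either direction. The 3 members are 8.57% of 35, with 2.86% higher and 5.71% lower, shares close to those of all genes. With an adjusted p under 0.1 none of the 35 members and none of all genes passed. The fold changes of 29 of 35 members were above 0, as were those of 51.4% of all genes, with a median of 0.17 beside 0.01 for all genes.

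This lean towards higher values rested on one control library. Of the 35 members, 31 were lower in replicate 1 of Ctrl than in replicate 2, including all 16 chaperones, all 7 oligosaccharyltransferase subunits and both translocon genes, with a median log2 difference of -0.35. The same library had 12400 TPM of Col1a1, against 20480 to 25020 TPM in the other 3 of that day. Other FAP markers were split: Cd34, Lum and Thy1 were also lowest in it, but Pdgfra, Ly6a and Dcn were highest. Pdgfra was at 365.5 against 254.0 to 340.5 TPM, Ly6a at 5407 against 2020 to 4232 TPM and Dcn at 1332 against 848.4 to 1228 TPM. The 4 endothelial markers of this library summed to 18.9 TPM against 2.32 to 4.63 TPM, most of it Kdr at 16.8 TPM against 0.879 to 2.25 TPM. Pecam1 was at 1.19 against 0.584 to 1.098 TPM, and Cdh5 and Emcn lay within the range of the other 3. Its 8 leukocyte markers summed to 27.7 TPM against 13.2 to 14.7 TPM, mostly through Cd68 and Cd79a. Itgam was higher too (0.368 against 0.0912 to 0.173 TPM), but Ptprc was within range and Adgre1 and Csf1r were lowest in this library. Cd3e and Nkg7 were at 0 in every library of that day. What part other cells had in its values was not tested. Without it, 16 of 35 members were above 0 and the median was -0.00, and without replicate 2 of Ctrl 30 were above 0, the median was 0.35 and 12 were called higher, where 7.34% of all genes were. Libraries of Osr1cKO lay above both Ctrl libraries for 10 of 35 members and below for 3, beside 18.3% and 18.2% of all genes.

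Ost4, a small membrane subunit of oligosaccharyltransferase, had 149.9 and 164.4 TPM in Ctrl and 269.2 and 286.6 TPM in Osr1cKO at 3 dpi. Both replicates of each genotype were close and the genotypes did not overlap, with a log2 fold change of 0.82 ± 0.13 (95% interval 0.49 to 1.14, unadjusted p = 0.00126 by limma over all genes, adjusted p = 0.771). The gene passed the unadjusted rule without any 1 of the 4 libraries. At 7 dpi it had 195.9 and 164.6 TPM in Ctrl and 206.0 and 204.9 TPM in Osr1cKO, a difference of 0.06 (95% interval -0.21 to 0.33). The other 6 subunits among the members gave 0.04 to 0.45 at 3 dpi and did not pass. On the annotation, 53.2% of the exonic length of Ost4 (chr5:30905885-30907788, minus strand) overlaps Agbl5 on the opposite strand. Agbl5 itself was at 0.941 to 2.02 TPM over the 8 libraries and differed by -0.03 between the genotypes at 3 dpi, but whether the counting used strand is not stated in the sources used here, so the values of Ost4 remain uncertain.

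Ddit3 had 54.2 and 50.02 TPM in Ctrl and 35.3 and 25.6 TPM in Osr1cKO at 3 dpi, a log2 fold change of -0.77 ± 0.20 (unadjusted p = 0.0114, adjusted p = 0.771, limma over all genes). Trib3 had 13.7 and 17.2 TPM against 10.1 and 5.86 TPM, -0.91 ± 0.30 (unadjusted p = 0.0284, adjusted p = 0.771, limma over all genes). The genotypes did not overlap for either gene, but in both the second Osr1cKO library was the lowest. Without that library Ddit3 stood at -0.52 and Trib3 at -0.54, neither past the rule, and Trib3 also missed it without replicate 2 of Ctrl (-0.76) and with no filter on low values. Eif2ak3, with 22.8 and 31.3 TPM in Ctrl and 35.8 and 40.7 TPM in Osr1cKO, just missed the rule at 0.50 ± 0.19 (unadjusted p = 0.0506, limma over all genes).

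The core regulators showed no difference that these libraries could resolve at 3 dpi. Hspa5 gave -0.02 with a 95% interval from -0.65 to 0.60, Atf4 -0.08 with an interval from -0.45 to 0.29, and Xbp1 0.14 with an interval from -0.36 to 0.64. The median half-width of the 95% interval over the 35 members was 0.50, so differences of that size in either direction could not be reliably told from 0 for a typical member.

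**Figure D4:**
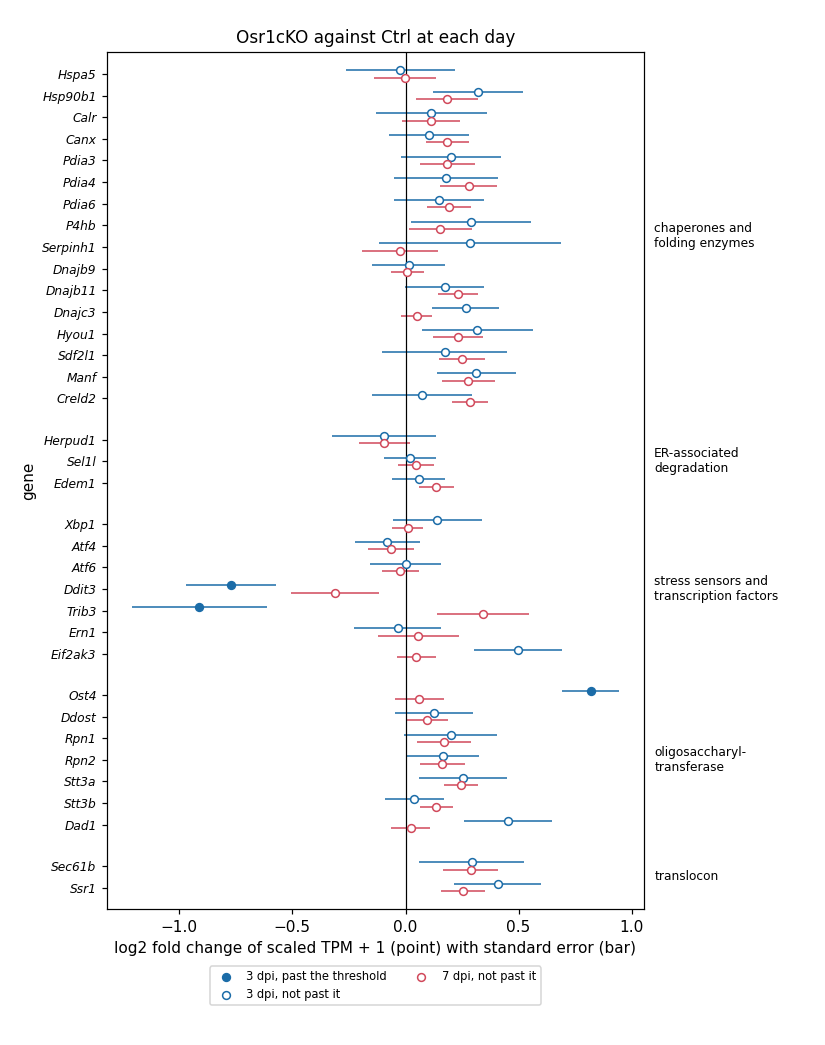
Points give the log2 fold change of Osr1cKO against Ctrl for each member at 3 dpi (blue) and 7 dpi (red) on the log2(scaled TPM + 1) scale, with bars for the standard error. Filled points passed the rule of that day: Ost4 on the right and Ddit3 and Trib3 on the left at 3 dpi, and none at 7 dpi.

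At 7 dpi none of the 35 members passed at adjusted p under 0.1 and fold over 1.2 (limma), a rule that 0.067% of all 16427 genes passed. At unadjusted p under 0.05 and fold over 1.2, 1 member, Creld2, was higher and none lower, beside 5.25% of all genes higher and 5.94% lower. Stt3a, Ssr1 and Dnajb11 were also higher at unadjusted p = 0.0198, 0.0406 and 0.0408 (limma over all genes). Their folds of 1.184, 1.193 and 1.175 fell short of that rule. The members nonetheless leaned to one side: 29 of 35 fold changes were above 0, against 50.8% of all genes, and the median was 0.14 beside 0.00 for all genes. After scaling, both Osr1cKO libraries lay above both Ctrl libraries for 19 of 35 members and below for none, where 23% of all genes were above and 22.9% below. By role these 19 were 12 of 16 chaperones, 3 of 7 oligosaccharyltransferase subunits, both translocon genes, Edem1 and Trib3.

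The sizes were small. Creld2 had 90.1 and 83.5 TPM in Ctrl and 111.0 and 121.4 TPM in Osr1cKO, 0.28 ± 0.08 (unadjusted p = 0.0136, adjusted p = 0.304, limma over all genes). Manf and Pdia4 stood at 0.28, Sec61b at 0.29, Ssr1 and Sdf2l1 at 0.25 and Stt3a at 0.24, while Hspa5 gave -0.00 (95% interval -0.35 to 0.34), Xbp1 0.01 and Atf4 -0.06. The Ctrl libraries of 7 dpi differed from each other by as much: 31 of 35 members were lower in replicate 2 than in replicate 1, including all 16 chaperones, all 7 oligosaccharyltransferase subunits and both translocon genes, with a median log2 difference of 0.15 beside -0.01 for all genes. The median stayed above 0 when any 1 library was left out, ranging from 0.06 without replicate 2 of Ctrl, when 23 of 35 were above 0, to 0.23 without replicate 1 of Ctrl. The scaling bears on this size, since without it the median of all genes was 0.11 and that of the members 0.27.

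No member had a genotype difference that changed between the days past the threshold. The interaction term was tested over all 8 libraries and had no call at adjusted p under 0.05 among the 35 members or among all 17226 genes (limma). At unadjusted p under 0.05, 1 member was higher and 1 lower, beside 3.64% and 3.12% of all genes. Trib3 changed from lower in Osr1cKO at 3 dpi to 0.34 at 7 dpi, an interaction of 1.24 ± 0.41 (unadjusted p = 0.0182, adjusted p = 0.661, limma over all genes). Ost4 gave -0.77 ± 0.18 (unadjusted p = 0.00353, adjusted p = 0.570, limma over all genes).

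In the wider set of ER genes, more fell than rose over time. Of 141 further pathway genes tested, 68 fell (48.2%) and 11 rose (7.8%) from 3 to 7 dpi in Ctrl, where 24.2% of all genes fell and 21.5% rose. In Osr1cKO 80 fell (56.7%) and 9 rose (6.38%), where 22.1% and 18.5% of all genes did. The 33 other glycosylation genes had 19 and 24 that fell (57.6% and 72.7%), with Alg3 and Alg8, a mannosyltransferase and a glucosyltransferase that build the glycan precursor, at -1.87 and -1.99 in Ctrl and at -1.78 and -1.77 in Osr1cKO. In the same list, Uggt2, a paralogue of the folding sensor Uggt1, rose by 0.98 and 0.57. Of 22 translocon and signal peptide genes, 11 and 15 fell (50% and 68.2%). The signal peptidase subunit Spcs3 stood at -1.15 and -1.38, while the gamma subunit of the channel, Sec61g, rose by 0.75 and 0.59. Of the 34 other chaperones 11 fell in Ctrl (32.4%) and 13 in Osr1cKO (38.2%), shares nearer to those of all genes, with medians of -0.29 and -0.42. The membrane-bound thioredoxin-like Tmx1 fell by 1.14 and 1.12 and the prolyl isomerase gene Ppic rose by 0.71 in Ctrl. Of 24 tested genes of ER-associated degradation, 10 and 12 fell (41.7% and 50%), among them Edem2 at -0.96 and -0.74.

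Among 28 other stress response genes, 17 fell in Ctrl (60.7%) and 16 in Osr1cKO (57.1%), beside 24.2% and 22.1% of all genes. In each genotype 4 rose (14.3%), beside 21.5% and 18.5% of all genes. Those that fell most included enzymes of amino acid synthesis. Phgdh, the first enzyme of serine synthesis, went from 142.1 and 130.6 TPM to 26.3 and 23.6 TPM in Ctrl and from 101.2 and 94.2 TPM to 34.6 and 36.6 TPM in Osr1cKO, with log2 fold changes of -2.33 ± 0.10 and -1.49 ± 0.10. Asns, asparagine synthetase, gave -2.54 ± 0.12 and -1.87 ± 0.12. Atf3, an immediate early stress factor, rose by 1.87 and 1.96, and Ppp1r15a (GADD34), which restores translation after stress, by 1.197 and 1.36 (each past limma adjusted p under 0.05). Dissociation genes, which include stress-induced factors, rose between the same libraries.

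The genotype differences of this list leaned lower at 3 dpi and, as a whole, leaned little at 7 dpi. At 3 dpi 20 of 28 were below 0, with a median of -0.16, and 28.6% were above 0 beside 51.4% of all genes. By the rule 3 were lower and 1 was higher (2.36% of all genes higher, 3.93% lower). Those lower were Phgdh (-0.48), Nupr1 (-0.48) and Sesn2, and the one higher was Creb3l2 (0.36). At 7 dpi 16 of 28 (57.1%) were above 0, beside 50.8% of all genes, with a median of 0.05. At unadjusted p under 0.05 and fold over 1.2, 7 were higher (5.25% of all genes), none of them at adjusted p under 0.1. These 7 were Asns, Ddit4, Stc2, Psat1, Phgdh, Shmt2 and Mthfd2, named after their values were seen. The interaction was positive at unadjusted p under 0.05 for 9 of 28 and negative for 1 (3.64% and 3.12% of all genes), and none passed adjustment. Phgdh had the smallest p of the list, 0.84 with unadjusted p = 0.000596 and adjusted p = 0.421 (limma over all genes). Both sets of libraries enter the interaction, so these counts and those of the genotype comparisons are not independent.

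**Figure D5:**
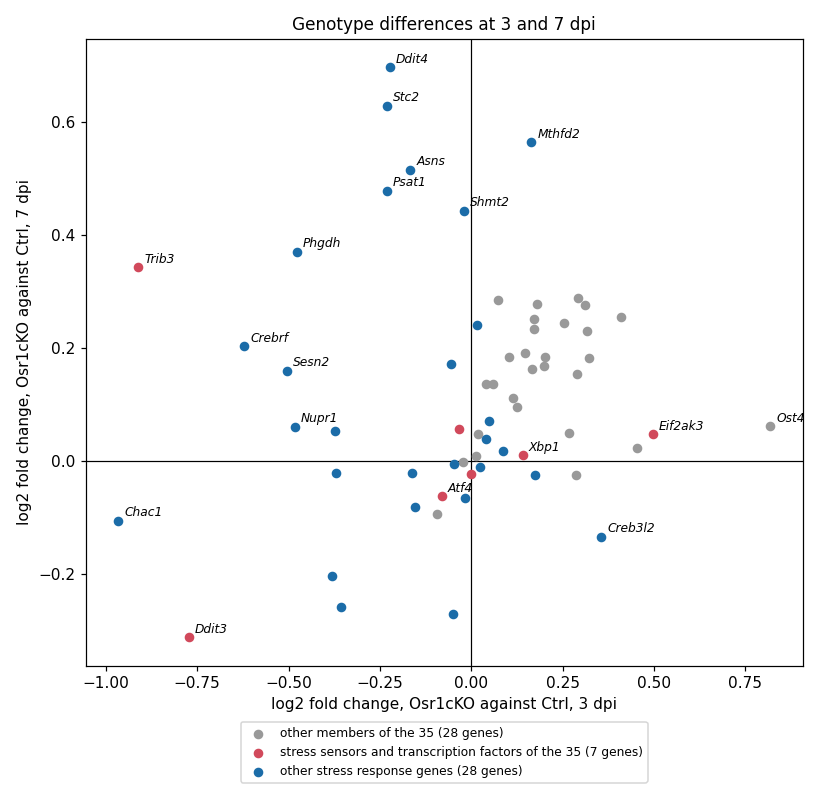
Each point is a gene, with its log2 fold change of Osr1cKO against Ctrl at 3 dpi on the horizontal and at 7 dpi on the vertical axis. The 28 members of other roles (grey) gather to the right and above 0, the 28 other stress response genes (blue) mostly lie left of 0 with a group above 0 on the vertical axis, and Trib3 lies in the upper left part.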

How the data were processed

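RNA was polyA-enriched and sequenced from stranded libraries. Per the labels and the study's methods, the authors mapped reads to mm10 with STAR and deposited TPM computed from their DESeq2-normalized fragment counts, per gene symbol. The counter, its strand setting and its annotation are not given in the sources used here. Each table held 55385 entries, and 109 repeated entries were left out (55276 symbols used). Fragments were recovered from TPM with GENCODE M21 exon lengths for 53282 symbols, and of the values below 50 fragments 98.7% to 98.9% were whole numbers to within 0.02. Since the unit is TPM and not counts, limma 3.58.1 in R 4.3.3 (lmFit, eBayes with a trend, Benjamini-Hochberg) was run on log2(TPM + 1) after scaling by a 30% trimmed mean of log ratios, so that fold changes of low genes are understated. Genes needed 10 fragments in 2 libraries and 15 in all. Genotypes were compared within each day's 4 libraries (3 dpi: unadjusted p under 0.05, 7 dpi: adjusted p under 0.1, fold over 1.2), and days and the interaction over all 8. Scripts were tested on simulated data.

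Named genes were Hspa5, Xbp1, Ddit3, Atf4, Ost4, members past a genotype rule and, per role, those changed most between the days. Genes of each other list were chosen by smallest p among those called without overlap of libraries, at most 2 per direction and comparison. Sesn2 and the genes marked as named after their values were seen fall outside this rule. The members and lists were chosen with earlier results of these data known. The 2 replicates of a group are separate mice or pools. Same-numbered deviations correlated at -0.128 (3 dpi) and 0.0638 (7 dpi), so the numbers were not taken as pairs. Ddit3 was listed more than once, and its first entry was used. Pseudocount, scaling, filter, model, pairing and library alternatives were run.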

Additional observations from a re-analysis of the deposited data

Results flagged for a closer look

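Trib3 was singled out because every Osr1cKO library lay below the Ctrl libraries at 3 dpi and above them at 7 dpi. The difference between the genotype effects was 1.24 on the log2 scale and was tested as an interaction (unadjusted p = 0.0182, adjusted p = 0.661, limma over all genes), which did not pass. Its level at 7 dpi was 2.05 to 3.87 TPM in all 4 libraries.

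Ost4 was singled out because its libraries moved up from 3 to 7 dpi in Ctrl and down in Osr1cKO without overlap. The difference between those changes was -0.77 (unadjusted p = 0.00353, adjusted p = 0.570, limma over all genes) and did not pass either, and its exons overlap Agbl5 on the other strand.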

How the results depend on the processing

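No value past its threshold changed sign under any alternative run. Among results that were not past it, 25 values of 9 results did, none of them past the threshold after the change. With the deposited TPM unscaled, Atf4 became 0.070 and Hspa5 0.13 at 7 dpi, Herpud1 0.045 in Osr1cKO and Xbp1 -0.068 in Ctrl between the days. With all 8 libraries Hspa5 became 0.0083 at 3 dpi and 0.019 at 7 dpi. Between the days Herpud1 became 0.0071 in Ctrl with median of ratios scaling, 0.060 in Ctrl and 0.062 in Osr1cKO with the mean TPM filter and 0.0091 in Ctrl with the Ctrl libraries alone, and Xbp1 became -0.019 in Ctrl with no filter. With 1 library left out, these values ran from -0.19 to 0.14 for Hspa5 and -0.080 to 0.35 for Xbp1 at 3 dpi. At 7 dpi they ran from -0.14 to 0.015 for Atf4, -0.12 to 0.11 for Hspa5, -0.072 to 0.19 for Ost4 and -0.011 to 0.028 for Xbp1. Between the days they ran from -0.33 to 0.30 for Herpud1 and -0.24 to 0.25 for Xbp1 in Ctrl and from -0.16 to 0.12 for Herpud1 in Osr1cKO. The counts at 3 dpi were the least stable: 2 members were higher in place of 1 (Eif2ak3 joining Ost4) under median of ratios scaling, a pseudocount of 0.1, limma-voom, robust eBayes or the replicate block, 5 were higher with all 8 libraries fitted together, and 1 was lower in place of 2 with no filter. With adjusted p under 0.1, 0 were higher and 0 lower. Leaving out 1 library gave 1 to 12 higher and 0 to 2 lower at 3 dpi, with 12 higher and 1 lower without Ctrl replicate 2 and 0 lower without Osr1cKO replicate 2. At 7 dpi it gave 0 in either direction, and 1 was higher at unadjusted p under 0.05 and fold over 1.2. Between the days it gave 16 to 26 lower and 1 to 3 higher in Ctrl (16 lower without Ctrl replicate 2 of 7 dpi, 1 higher without replicate 1), and 18 to 27 lower and 1 to 3 higher in Osr1cKO (1 higher without Osr1cKO replicate 2 of 3 dpi). At a fold over 2, 11 were lower and 1 higher in each genotype. For the interaction, 1 was higher and 1 lower at unadjusted p, and 0 in either direction with any library left out. The replicate block gave 22 lower in Ctrl and 24 in Osr1cKO. A crossed pairing at 3 dpi, added after the data were seen, gave 1 higher and 2 lower. Of the named genes' single values, 696 kept their direction and call, 14 gained and 19 lost it, and where no library or gene was left out the cause was not tested. With 2 libraries per group, small differences could not be resolved.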
